A study of Astyanax mexicanus with 12 samples.

Results

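Embryos of the Tinaja cave morph of *Astyanax mexicanus* were compared with surface fish embryos by small RNA sequencing at 24 h post fertilization (hpf). The comparison rests on 6 of the 12 libraries of the series, namely Tinaja replicates 1 to 3 and surface fish replicates 1 to 3, and on all 683 mature miRNAs in the table of counts. Tinaja fish live in a cave and surface fish in rivers, and all libraries came from wild-type embryos with no treatment named in the labels. The Pachón and Molino cave morphs, with 3 libraries each, were looked up to see which Tinaja changes were found in no other cave morph. The text read here gives the number of embryos per morph but not how they were divided among libraries. The p-values therefore measure the spread between replicate libraries, pooled over all 12 of the series, which may be technical. RNA of homogenized embryos does not separate fewer cells of a type from fewer copies per cell.

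miRNAs are short noncoding RNAs cut from hairpin precursors and loaded into the silencing complex, which they guide to mRNAs by base pairing, most often in the 3′ UTR, and so lower translation or mRNA stability. In vertebrate embryos many of them are made in particular tissues as these form, so their levels change with stage and with tissue makeup. The study collected embryos at this stage because the eye begins to regress in cavefish at about this time. The miRNAs carry serial numbers given by the authors, with the prefix astmex-, which is left out from here on. The numbers do not point to same-numbered miRNAs of other species, and neither sequences nor targets nor positions in the genome were analysed here, so no function is attached to single names and no tissue marker could be checked.

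The counts per library added up to 7565642 to 14673376 in Tinaja and 5539157 to 8537696 in surface fish. The detection limit was set at 3 counts, which stood for 0.218 to 0.349 CPM in Tinaja and for 0.351 to 0.515 CPM in surface fish. CPM, the count relative to the library total scaled by edgeR's TMM factor, is the level used throughout, and the limit covers counting error only. Each Tinaja library held at least 10 counts of 428 miRNAs, and each surface fish library of 379. No count in any library was found for 25 miRNAs in Tinaja and for 23 in surface fish. The median SD of log2(CPM + 0.5) among replicates was 0.18 in Tinaja and 0.15 in surface fish, over the 465 miRNAs whose mean reached 10 counts in the 6 libraries. No pair of replicate libraries was a copy (chi-square per degree of freedom of 13.1 to 641). Replicate 3 had the lowest total of the Tinaja libraries and the highest TMM factor, which balances libraries of different composition, at 1.14, against 0.937 and 0.984 in the others.

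The morphs were compared by the quasi-likelihood test of edgeR, with all 12 libraries fitted together. A miRNA was called when its adjusted p-value (Benjamini−Hochberg, over all 683 miRNAs) was under 0.05 and its estimated fold change was at least 2. By this rule 96 miRNAs (14.1%) were higher and 100 (14.6%) were lower in Tinaja than in surface fish. Together they were 28.7% of the miRNAs tested, which is the reference for the shares called by abundance class below. By the adjusted p alone, 331 miRNAs (48.5%) passed. Of these, 135 had a smaller fold change, and 59 reached the fold change without the p-value. The median log2 fold change was 2.18 among those called higher and −2.55 among those called lower. It was 1.88 and −2.39 when miRNAs without a count in one morph were set to their lower limits. A fold change of at least 16 was fitted for 25 of the higher and 28 of the lower miRNAs. These counts include miRNAs without a count in one morph, whose fitted fold change has no fixed size. For example, miR-579 was fitted at 137-fold higher with a lower limit of 4.05, and miR-490 at 112-fold lower with a limit of 5.22. The CPM values of the morphs did not overlap for 95 of the 96 miRNAs called higher and for 94 of the 100 called lower. Over all 683 miRNAs they did not overlap for 27.2% in the higher and 26.8% in the lower direction. The called miRNAs were chosen on these same libraries. Their separation is thus largely built in, and the shares over all miRNAs are not a like reference. The 7 called miRNAs whose values overlapped were miR-164, miR-280, miR-384, miR-442, miR-443, miR-538, and miR-683, listed after their values were seen. Each of these 7 lost its call when at least 1 library was left out. Such losses were not confined to these 7. Without surface fish replicate 1 alone, 164 of the 196 main calls were kept. miR-164, with 4, 8, and 5 counts in Tinaja against 68, 2, and 3 counts in surface fish, had a log2 fold change of −2.66 (edgeR adjusted p = 0.0183) that became 0.30 without surface fish replicate 1 (adjusted p = 0.804).

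**Figure D1:**
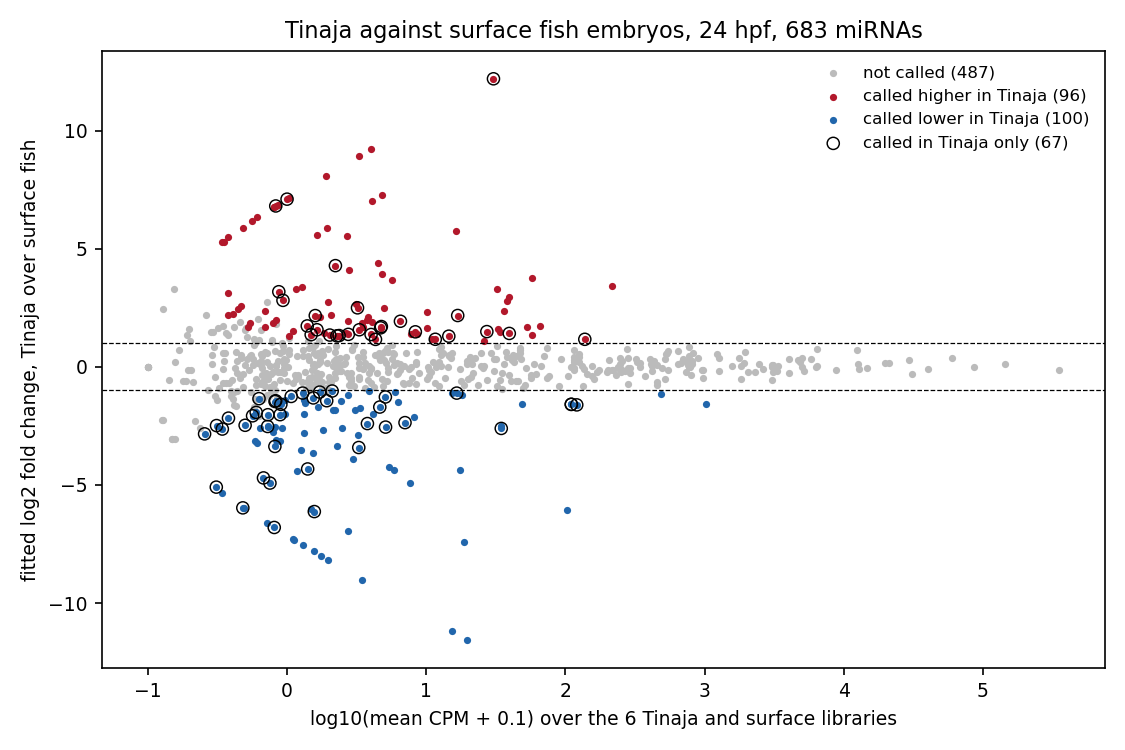
Fitted log2 fold change of Tinaja over surface fish for each of the 683 miRNAs, plotted against log10 of the mean CPM (plus 0.1) over the 6 libraries; dashed lines mark a fold change of 2 and rings mark miRNAs called in Tinaja only. The 96 higher (red) and 100 lower (blue) miRNAs lie mostly at low abundance, and the points narrow around 0 toward the right. Fitted fold changes of miRNAs without a count in one morph have no fixed size.

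Most called miRNAs were scarce. Of the 196 called miRNAs, 158 (80.6%) had a mean under 10 CPM over the 6 libraries, as did most of the miRNAs tested. The share called was clearly below the 28.7% over all miRNAs only at 100 CPM or more. Calls were made for 61 of 206 miRNAs under 1 CPM (29.6%), 97 of 238 at 1 to 10 CPM (40.8%), 30 of 106 at 10 to 100 CPM (28.3%), 7 of 87 at 100 to 1000 CPM (8.05%), and 1 of 46 at 1000 CPM or more (2.17%). Under 1 CPM, 26 were higher and 35 lower, and at 1 to 10 CPM 48 were higher and 49 lower. At 10 to 100 CPM, 20 miRNAs were higher and 10 were lower. At 100 CPM or more, 2 were higher and 6 were lower, among 133 miRNAs of which 71 had an adjusted p under 0.05. Abundant miRNAs thus often differed, but by less than 2-fold. Regardless of sign, the log2 fold change had a median of 0.25 at 100 to 1000 CPM and 0.18 at 1000 CPM or more. The miRNAs called higher made up 0.197% ± 0.0293 of the counts in Tinaja and 0.0441% ± 0.00386 in surface fish, and those called lower made up 0.114% ± 0.0125 in Tinaja and 0.363% ± 0.0118 in surface fish (SD, n = 3 each). These shares describe miRNAs chosen by the same comparison and were not tested.

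**Figure D2:**
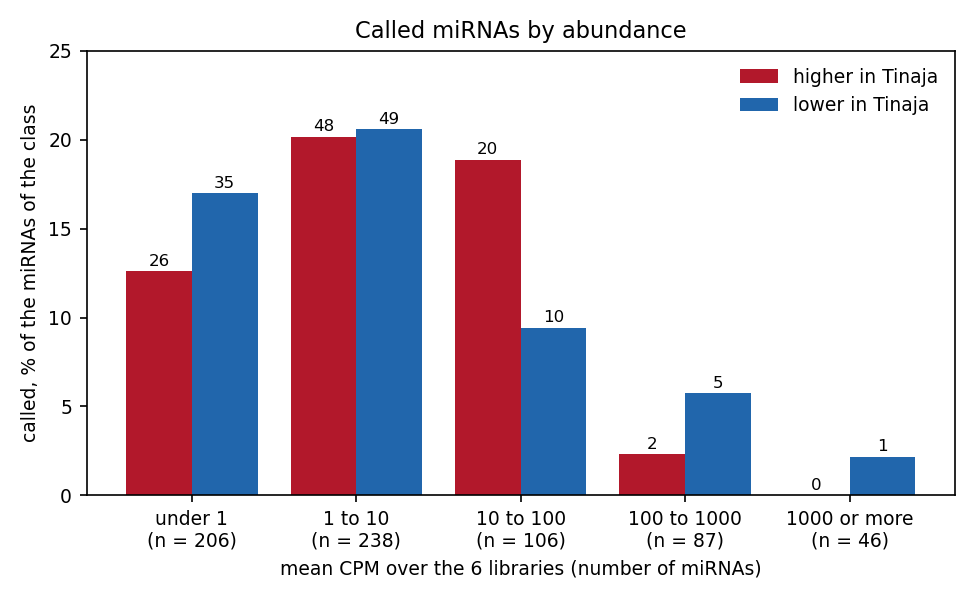
Share of the miRNAs in each abundance class (mean CPM over the 6 libraries) that were called higher (red) or lower (blue) in Tinaja than in surface fish, with the number of miRNAs above each bar. The classes under 100 CPM hold 94 of the 96 higher and 94 of the 100 lower miRNAs.

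None of the 10 most abundant miRNAs was called, and 4 of them had an adjusted p under 0.05. Together they took 80.2% ± 1.35 of the counts in Tinaja and 81.5% ± 0.536 in surface fish (SD, n = 3 each). The most abundant, miR-1, stood at 331630, 333517, and 336324 CPM in Tinaja and at 393400, 398532, and 324652 CPM in surface fish. Its log2 fold change of −0.16 (standard error 0.07) did not pass edgeR's test (adjusted p = 0.0763), and 1 surface fish library lay below all Tinaja libraries. miR-4 had the largest rise of the 10, at 74713, 77825, and 52699 CPM in Tinaja and 51149, 51367, and 54691 CPM in surface fish (log2 fold change 0.38, standard error 0.11, adjusted p = 0.0104 from edgeR). Tinaja replicate 3 lay within the surface fish range. miR-7 fell to 28945, 29348, and 24960 CPM in Tinaja, while it stood at 34749, 34680, and 33643 CPM in surface fish (log2 fold change −0.31, standard error 0.06, adjusted p = 0.000647 from edgeR). The morphs did not overlap for miR-7, nor for miR-6, which was higher in Tinaja (log2 fold change 0.30, adjusted p = 0.000944 from edgeR). miR-10 had a log2 fold change of 0.15 (adjusted p = 0.0354 from edgeR). The other 5, miR-2, miR-3, miR-5, miR-8, and miR-9, did not pass the test. For some of the 10 this turned on 1 library or on the method. Without Tinaja replicate 3, miR-2 (log2 fold change 0.33, edgeR adjusted p = 0.0283) and miR-8 (0.22, edgeR adjusted p = 0.00457) passed. miR-10 did not pass edgeR's likelihood ratio test (adjusted p = 0.168), nor its main test without TMM factors (adjusted p = 0.113). For miR-2 the replicates spread widely in Tinaja, at 162814, 184457, and 96051 CPM, with surface fish between 134356 and 143854 CPM.

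The single miRNA called at 1000 CPM or more was miR-57. It had 500.1, 526.4, and 518.2 CPM in Tinaja and 1505, 1544, and 1556 CPM in surface fish (log2 fold change −1.58, standard error 0.09, adjusted p = 4.66e-10 from edgeR). Among the abundant miRNAs that were lower, miR-194 followed with 299.2 ± 36.3 CPM in Tinaja and 666.1 ± 28.7 CPM in surface fish (SD, n = 3 each; log2 fold change −1.15, edgeR adjusted p = 1.94e-08). Then came 3 miRNAs of nearly the same profile. miR-204 had 58.7, 50.8, and 68.9 CPM in Tinaja, with 190.1, 184.5, and 169.5 CPM in surface fish. miR-207 had 653, 654, and 545 counts in Tinaja and 1472, 1092, and 897 counts in surface fish, and miR-208 had 652, 662, and 547 counts in Tinaja and 1476, 1095, and 894 counts in surface fish. Their log2 fold changes were −1.61, −1.59, and −1.59 (edgeR adjusted p = 7.61e-10 for each). The counts of miR-207 and miR-208 differed by at most 1.69% in any of the 12 libraries, and miR-204 had 1.04 to 1.12 times the counts of miR-207. The counting may have assigned the same reads to several of these miRNAs, so they may not be independent changes, although each enters the counts given here as 1 miRNA. The last of the abundant miRNAs that were lower was miR-226, with a mean of 101.9 CPM over the 6 libraries. It had the largest change at 100 to 1000 CPM (log2 fold change −6.04) and is described below.

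Of the abundant miRNAs, only miR-88 and miR-200 were called higher. miR-88 had 340.1, 394.9, and 454.6 CPM in Tinaja and 28.3, 27.5, and 55.1 CPM in surface fish (log2 fold change 3.44, standard error 0.22, adjusted p = 1.57e-09 from edgeR). Its lowest Tinaja library thus stood far above its highest surface fish library. miR-200 rose to 190.2 ± 29.6 CPM in Tinaja, with 84.98 ± 5.40 CPM in surface fish (SD, n = 3 each; log2 fold change 1.16, edgeR adjusted p = 1.66e-07). In a test against a 2-fold change in place of 0, neither miR-200 (adjusted p = 0.1) nor miR-194 (0.0689) was called. In the next lower class, miR-198 (101.2 ± 10.4 CPM in Tinaja, 30.9 ± 3.95 CPM in surface fish) and miR-218 (83.2 ± 3.86 CPM in Tinaja, 32.3 ± 3.47 CPM in surface fish; SD, n = 3 each) were higher, with log2 fold changes of 1.71 and 1.36 (edgeR adjusted p = 7.61e-10 and 4.69e-09).

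The 5 higher miRNAs with the smallest adjusted p were miR-215, miR-212, miR-259, miR-221, and miR-198. miR-215 had 113.5, 104, and 102.1 CPM in Tinaja and 8.18, 7.43, and 7.73 CPM in surface fish (log2 fold change 3.77, standard error 0.10, adjusted p = 9.48e-13 from edgeR). miR-212 had 57.2, 56.6, and 67.96 CPM in Tinaja and 13.8, 9.90, and 11.2 CPM in surface fish (log2 fold change 2.37, standard error 0.12, adjusted p = 1.44e-10 from edgeR). The SD of the CPM values was 6.12 in Tinaja and 0.381 in surface fish for miR-215, and 6.40 and 1.99 for miR-212 (n = 3 each). Both were chosen for a small adjusted p, so a gap wider than the spread is built in. miR-221 had 69.5, 75.7, and 61.8 CPM in Tinaja and 7.83, 12.2, and 7.04 CPM in surface fish (log2 fold change 2.94, standard error 0.16, adjusted p = 4.37e-10 from edgeR). miR-259 was counted 721, 842, and 526 times in the Tinaja libraries and never in surface fish.

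The 5 lower miRNAs with the smallest adjusted p were miR-226, miR-251, miR-224, miR-278, and miR-205. miR-226 had 2.80, 3.34, and 2.91 CPM in Tinaja and 211.6, 194.6, and 196.4 CPM in surface fish (log2 fold change −6.04, standard error 0.13, adjusted p = 3.63e-15 from edgeR). miR-251 had 1.73, 1.67, and 1.40 CPM in Tinaja and 31.3, 35.7, and 32.96 CPM in surface fish (log2 fold change −4.35, standard error 0.14, adjusted p = 6.95e-13 from edgeR). Surface fish held miR-226 at a mean of 200.9 CPM and miR-251 at a mean of 33.3 CPM. Tinaja retained a low but countable level of both in every library. miR-224 was near the detection limit in Tinaja, with 4, 2, and 1 counts in Tinaja and 295, 248, and 216 counts in surface fish (log2 fold change −7.41, standard error 0.26, edgeR adjusted p = 1.15e-12). miR-205 had 10.7, 8.94, and 9.43 CPM in Tinaja and 54.2, 63.6, and 59.9 CPM in surface fish (log2 fold change −2.61, standard error 0.12, adjusted p = 2.97e-11 from edgeR). miR-278, with no count in Tinaja, is described with the switched miRNAs.

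**Figure D3:**
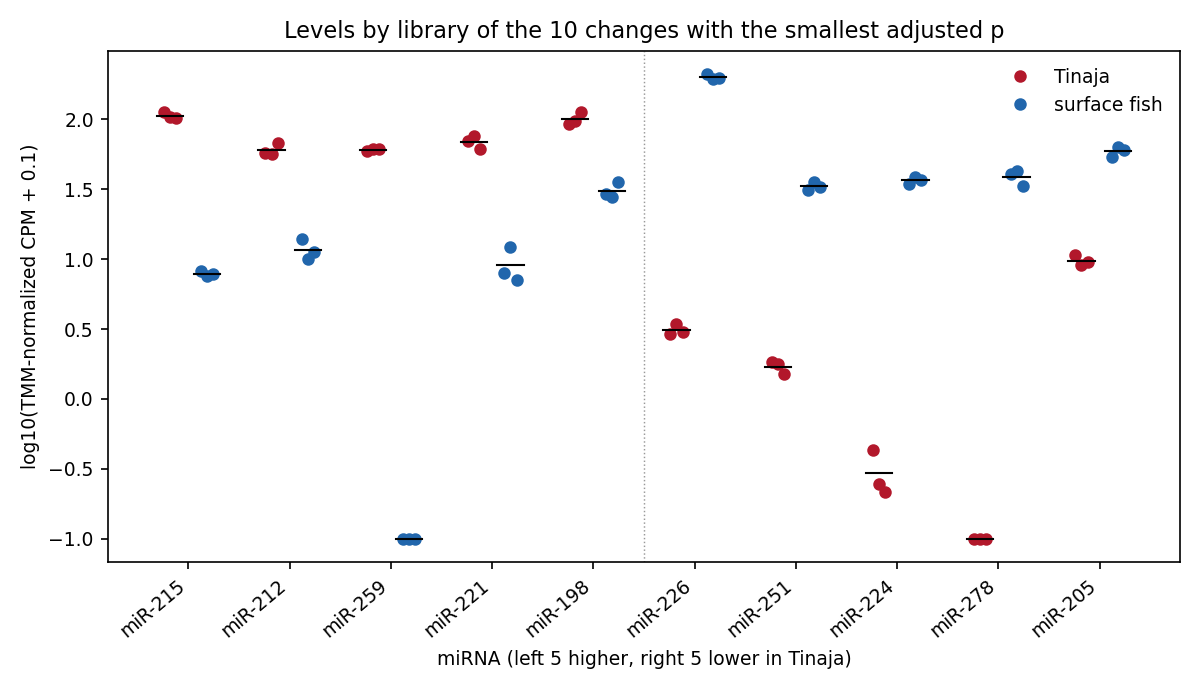
TMM-normalized CPM (log10 of CPM + 0.1) in each library for the 5 higher and the 5 lower miRNAs with the smallest adjusted p; points are libraries of Tinaja (red, left of each pair) and surface fish (blue, right), black lines are means of 3 libraries, and points at −1 are libraries without a count. In each of the 10 the 3 Tinaja libraries lie wholly on one side of the 3 surface fish libraries, which the choice by adjusted p largely builds in.

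A group of 32 miRNAs was at or near 0 in one morph, with at most 3 counts in each library, and reached at least 10 counts in each library of the other. Of these, 17 were present in Tinaja, at 1.03 to 60.6 CPM (median 3.61), and 15 were present in surface fish, at 2.01 to 38.9 CPM (median 2.91). All 32 were called, which the limits on the same counts largely build in. The Tinaja libraries were deeper on average, and on counts thinned to the shallowest library the same limits gave 11 miRNAs present in Tinaja and 17 present in surface fish. No count at all was found in the low morph for 9 of the 17 and for 9 of the 15. Leading those present in Tinaja, miR-259 averaged 60.6 ± 1.11 CPM in Tinaja (SD, n = 3), and with 0 counts in surface fish it was at least 137-fold higher, computed against 3 counts in each surface fish library (adjusted p = 1.5e-10 from edgeR). miR-408 had 106, 139, and 81 counts in Tinaja and 0, 1, and 0 counts in surface fish, a ratio of 197 (95% counting interval 35.1 to 7801). miR-330 had 95, 112, and 65 counts in Tinaja and 0, 0, and 1 counts in surface fish, a ratio of 164 (95% counting interval 29.2 to 6513). miR-329 had 84, 94, and 83 counts in Tinaja and none in surface fish, at least 17.6-fold higher. The intervals are wide because a single surface fish read sets them.

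Leading those present in surface fish, miR-278 had 0 counts in each Tinaja library against 350, 274, and 195 counts in surface fish, at least 143-fold lower in Tinaja (adjusted p = 3.95e-12 from edgeR). miR-273 also had no count in Tinaja against 264, 168, and 197 counts in surface fish, at least 111-fold lower (adjusted p = 4.37e-10 from edgeR). miR-511 had none in Tinaja against 66, 44, and 33 counts in surface fish, at least 24.8-fold lower. miR-526 had 0, 1, and 0 counts in Tinaja against 36, 33, and 38 counts in surface fish, with a surface to Tinaja ratio of 177 (95% counting interval 31.1 to 7062). Both groups were then looked up in the other cave morphs by the same limits on raw counts. Library totals were unequal, at 10035615 to 15279059 in Pachón and 7683993 to 8275406 in Molino. No share over all miRNAs is given for these limits, and a difference between the directions was not tested. Of the 17 miRNAs present in Tinaja, 9 had at least 10 counts in each Pachón library and 5 in each Molino library, and 3 and 11 were at 3 or fewer in each library of these morphs. Of the 15 that surface fish held and Tinaja did not, 3 had at least 10 counts in each Pachón library and 11 in each Molino library, while 9 and 1 were at 3 or fewer there. miR-330, for example, was at 67, 109, and 63 counts in Pachón and at 0 in every Molino library, and miR-273 was at 0 in every Pachón library and at 365, 370, and 287 counts in Molino. miR-408 had 4, 8, and 12 counts in Pachón and 0 in every Molino library. In others both cave morphs went with Tinaja. miR-329 had 59, 62, and 54 counts in Pachón and 57, 55, and 40 in Molino. miR-511 was at 0 in every library of both, and miR-526 had 1, 3, and 0 counts in Pachón and 5, 8, and 9 in Molino.

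**Figure D4:**
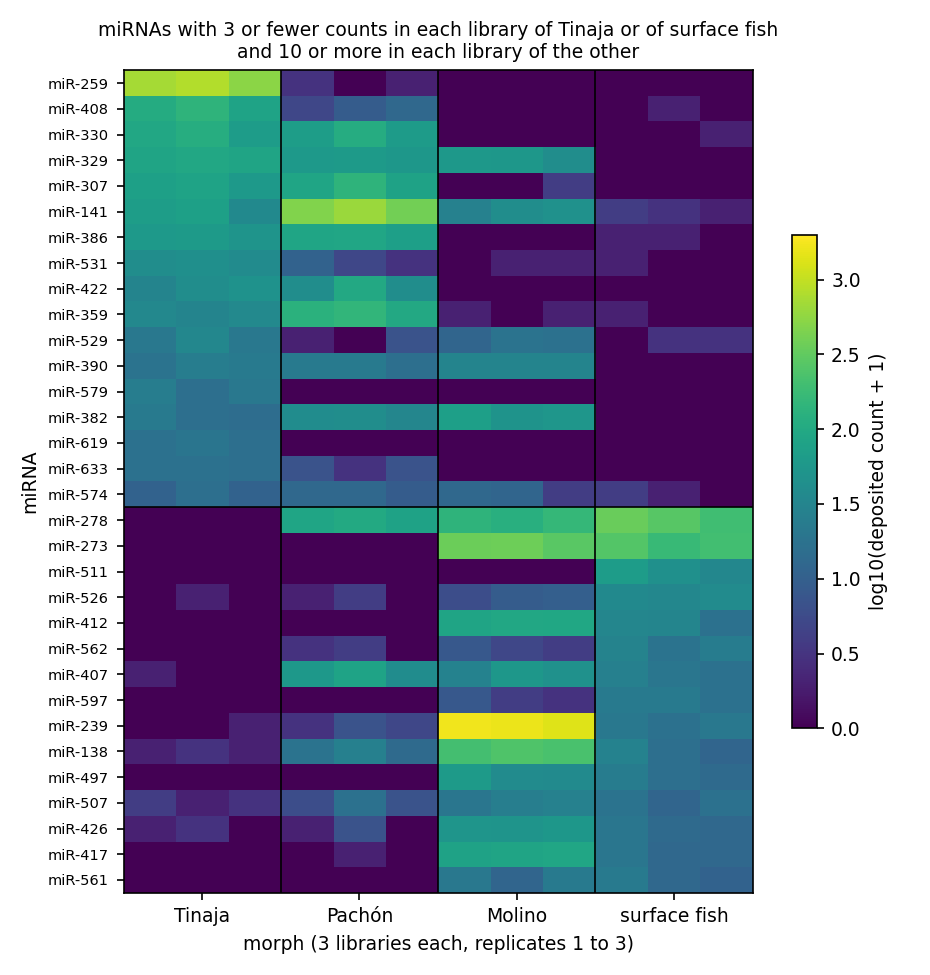
Deposited counts, as log10 of the count plus 1, in all 12 libraries for the 17 miRNAs present in Tinaja and near 0 in surface fish (above the line) and the 15 with the reverse pattern (below the line), ordered by mean CPM. The upper block is dark in all surface fish and the lower block in all Tinaja libraries, and Molino is dark for 11 of the upper 17.

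The changes were next sorted by whether the same direction was called in the other cave morphs, each against the same surface fish libraries. In these comparisons 16% of the miRNAs were called higher and 13.8% lower in Pachón, and 23.6% were called higher and 11.3% lower in Molino. Of the Tinaja changes, 28 of the 96 higher and 39 of the 100 lower miRNAs were called in Tinaja only. Some of these moved the same way elsewhere with an edgeR adjusted p under 0.05 but by less than 2-fold. In Pachón this held for 4 of the 28 and 5 of the 39, and in Molino for 3 and 0. By mean over the 6 libraries, 4 of the 28 and 21 of the 39 lay under 1 CPM, as did 26 of the 96 and 35 of the 100. The 39 include miR-384, miR-442, miR-443, and miR-538, whose values overlapped and whose calls were lost when at least 1 library was left out. Sharing the surface fish libraries ties the 3 comparisons together, and a call missed in another morph is not a difference from it. Each of the 67 was therefore tested directly against Pachón and against Molino in the same fit. Over all miRNAs, 10.7% were higher and 14.2% lower in Tinaja than in Pachón, and 14.6% were higher and 28.1% lower in Tinaja than in Molino. Of the 67, 42 (62.7%) differed from both cave morphs in the same direction by both thresholds, 20 of them higher and 22 lower in Tinaja. The 67 had been chosen on the same libraries, by calls made in Tinaja and missed in the other cave morphs. A high share is thus partly built in, and the shares for single comparisons are not a like reference. Over all miRNAs, 59 differed from surface fish, Pachón, and Molino in the same direction.

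The 20 higher ones were miR-127, miR-259, miR-266, miR-290, miR-345, miR-363, miR-414, miR-415, miR-419, miR-431, miR-436, miR-456, miR-503, miR-525, miR-560, miR-572, miR-579, miR-598, miR-610, and miR-619. The call of miR-560 against surface fish (log2 fold change 1.57, edgeR adjusted p = 0.0184) was lost without Tinaja replicate 1 (adjusted p = 0.0824), without surface fish replicate 1 (0.0691), on counts thinned to the shallowest library (0.0739), and in a test against a 2-fold change (0.206). Of these 20, 3, miR-259, miR-579, and miR-619, reached at least 10 counts in each Tinaja library and at most 3 in each library of all other morphs. miR-259 had 2, 0, and 1 counts in Pachón and none in Molino (edgeR adjusted p = 5.11e-11 against Pachón and 3.94e-11 against Molino). miR-579 had 24, 15, and 20 counts and miR-619 had 16, 18, and 15 counts in Tinaja, with none in any of the 9 other libraries, and against surface fish they were at least 4.05-fold and 3.29-fold higher. These 2 are known from few reads, while miR-259 was not scarce in Tinaja. miR-127, miR-290, and miR-266 were chosen after their values were seen. miR-127 had 57.2 ± 3.27 CPM in Tinaja, 18.3 ± 2.17 CPM in Pachón, 22.1 ± 3.51 CPM in Molino, and 21.5 ± 1.94 CPM in surface fish (SD, n = 3 each). Its log2 fold changes were 1.41 against surface fish, 1.65 against Pachón, and 1.37 against Molino (edgeR adjusted p = 1.09e-07, 1.47e-08, and 7.13e-08). Against surface fish it did not differ detectably in Pachón (−0.24, adjusted p = 0.144) or in Molino (0.04, adjusted p = 0.806). miR-290 had 27.4 ± 4.22 CPM in Tinaja, 2.61 ± 0.660 CPM in Pachón, 2.001 ± 0.737 CPM in Molino, and 6.03 ± 1.99 CPM in surface fish (SD, n = 3 each), and miR-266 had 39.9 ± 3.70 CPM in Tinaja, 4.19 ± 1.14 CPM in Pachón, 10.95 ± 0.508 CPM in Molino, and 14.3 ± 2.41 CPM in surface fish (SD, n = 3 each). Unlike miR-127, miR-290 was called lower in both Pachón and Molino than in surface fish (log2 fold changes of −1.19 and −1.58), and miR-266 was called lower in Pachón (−1.75).

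The 22 lower ones were miR-138, miR-204, miR-205, miR-237, miR-269, miR-294, miR-298, miR-318, miR-333, miR-339, miR-399, miR-407, miR-446, miR-490, miR-514, miR-522, miR-535, miR-544, miR-556, miR-566, miR-656, and miR-675. miR-490 had no count in Tinaja, against 31, 30, and 25 counts in Pachón, 24, 29, and 28 in Molino, and 14, 8, and 8 in surface fish. Its level in Tinaja was at least 5.22-fold lower than in surface fish. miR-407 had 1, 0, and 0 counts in Tinaja, against 56, 82, and 39 in Pachón, 28, 54, and 46 in Molino, and 26, 19, and 16 in surface fish, with a surface to Tinaja ratio of 101 (95% counting interval 17.5 to 4054). Every other library of the series held both miRNAs. miR-298 had 0.541 ± 0.304 CPM in Tinaja, 13.9 ± 2.45 CPM in Pachón, 12.2 ± 1.34 CPM in Molino, and 5.80 ± 1.03 CPM in surface fish (SD, n = 3 each), and it was lower in Tinaja but called higher in the other cave morphs than in surface fish (log2 fold changes of −3.42, 1.28, and 1.09). miR-205, the most abundant of the 5 lower miRNAs above in any morph, was at 9.69 ± 0.902 CPM in Tinaja, 56.9 ± 4.66 CPM in Pachón, 544.1 ± 62.5 CPM in Molino, and 59.2 ± 4.71 CPM in surface fish (SD, n = 3 each). Pachón and surface fish did not differ detectably (log2 fold change −0.06, edgeR adjusted p = 0.672), and Tinaja and Molino departed from them in opposite directions. miR-138 was likewise lower in Tinaja and higher in Molino than in surface fish, with 1, 2, and 1 counts in Tinaja, 17, 26, and 13 in Pachón, 206, 242, and 222 in Molino, and 28, 15, and 11 in surface fish. For miR-138, unlike miR-205, Pachón was also lower than surface fish, by less than 2-fold (log2 fold change −0.76, edgeR adjusted p = 0.019). In the lists called in Tinaja only, opposite calls against surface fish were found too. Of the 39 lower ones, 1 was called higher in Pachón and 13 in Molino, where 16% and 23.6% of all miRNAs were called higher. Of the 28 higher ones, 6 were called lower in Pachón and 6 in Molino, where 13.8% and 11.3% of all miRNAs were called lower. Both lists leave out same-direction calls by definition, and the comparisons share the surface fish libraries. The shares over all miRNAs are therefore not a like reference, and the difference was not tested.

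**Figure D5:**
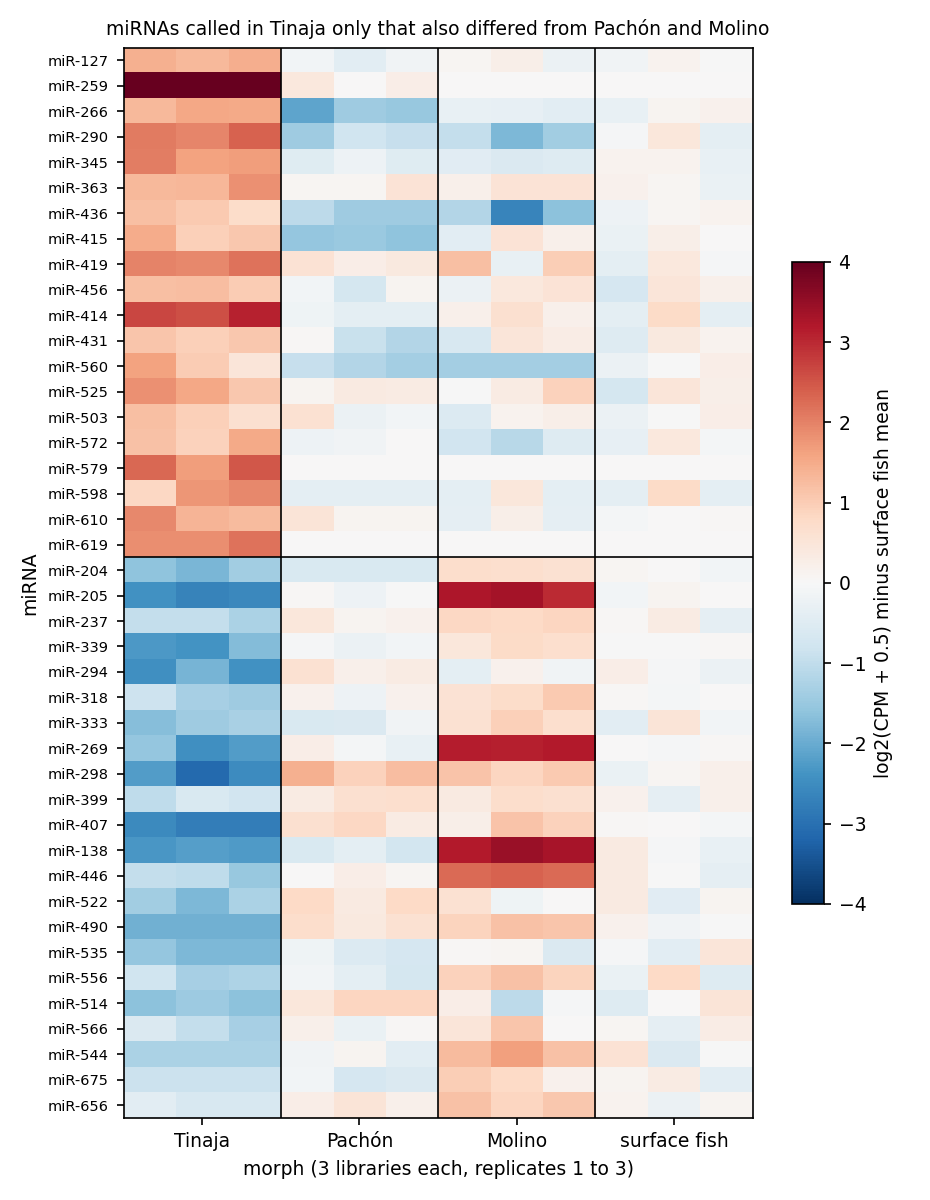
Log2 of CPM + 0.5 in each library, less the surface fish mean of the miRNA, for the 20 higher (above the line) and 22 lower (below the line) miRNAs called in Tinaja only that also differed from Pachón and Molino, ordered by mean CPM. Colors stop at 4 and −4, which cuts off miR-259 in Tinaja. The 3 Tinaja columns are red throughout the upper block and blue throughout the lower block, and several lower miRNAs are strongly red in Molino.

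For the remaining 25 miRNAs called in Tinaja only, the direct tests placed Tinaja apart from 1 or neither of the other cave morphs. Among the higher ones, 2 differed from Pachón only, 5 from Molino only, and 1, miR-200, from neither. miR-200 had 162.7 ± 6.27 CPM in Pachón and 159.6 ± 14.8 CPM in Molino (SD, n = 3 each), log2 fold changes of 0.94 and 0.91 over surface fish against 1.16 in Tinaja. Its log2 difference between Tinaja and Pachón was 0.23 (standard error 0.10, edgeR adjusted p = 0.0863) and between Tinaja and Molino 0.25 (standard error 0.10, adjusted p = 0.0429), so its place among the Tinaja-only changes came from the fold-change rule. Among the lower ones, 3 differed from Pachón only, 11 from Molino only, and 3 from neither. miR-204, miR-207, and miR-208 showed how close the rule can run. Their log2 differences between Tinaja and Pachón were −1.01, −0.98, and −0.98, with standard errors of 0.09 each, so the first passed the fold-change rule and the others did not. All 3 were lower in Tinaja than in Molino, at log2 differences of −2.28, −2.33, and −2.30 (edgeR adjusted p = 6.14e-12, 4.55e-12, and 4.55e-12). Pachón was also lower than surface fish in all 3, by less than 2-fold. The log2 fold changes there were −0.61 each (edgeR adjusted p = 4.38e-05, 3.66e-05, and 3.24e-05). Molino was higher than surface fish, at 0.66, 0.73, and 0.72, also short of the fold-change rule.

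Another 17 miRNAs, 8 higher and 9 lower, were called in the same direction in another cave morph and still differed from both in that direction, which brings the miRNAs at an extreme in Tinaja to 28 higher and 31 lower. miR-285 had 433, 434, and 242 counts in Tinaja, 3, 5, and 5 in Pachón, 30, 6, and 14 in Molino, and 2, 10, and 0 in surface fish. The libraries of the other morphs together did not reach the lowest Tinaja library. miR-121, named after its values were seen, was at 66.4 ± 12.9 CPM in Tinaja, 18.3 ± 3.88 CPM in Pachón, 29.4 ± 1.97 CPM in Molino, and 9.46 ± 2.70 CPM in surface fish (SD, n = 3 each). miR-226 was lowest in Tinaja, at 3.02 ± 0.290 CPM, with 67.9 ± 0.651 CPM in Pachón, 12.6 ± 2.42 CPM in Molino, and 200.9 ± 9.32 CPM in surface fish (SD, n = 3 each). The 4 morphs were separated from one another in this miRNA, and the log2 difference was −4.48 between Tinaja and Pachón and −2.05 between Tinaja and Molino (edgeR adjusted p = 1.4e-13 and 3.41e-09). miR-278, without a count in Tinaja, had 87, 100, and 79 counts in Pachón and 140, 119, and 158 counts in Molino. miR-224 had 9.39 ± 2.29 CPM in Pachón and 84.8 ± 5.95 CPM in Molino (SD, n = 3 each), below and above the surface fish level. Of the 28 higher miRNAs, 16 had means within 2-fold of each other in Pachón, Molino, and surface fish, and of the 31 lower ones 9 did. For this comparison, means below the average detection limit were raised to it. miRNAs without a count in these morphs, such as miR-579 and miR-619, thus count as within 2-fold.

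Several Tinaja changes were found in other cave morphs too. miR-57 and miR-194 were lower in each cave morph than in surface fish, with 441.3 ± 58.6 and 359 ± 26.8 CPM in Pachón and 617.6 ± 47.4 and 244.8 ± 11.7 CPM in Molino (SD, n = 3 each), although miR-194 missed the fold-change rule in Pachón. miR-218 reached 93.0 ± 6.94 CPM in Pachón and 88.7 ± 2.78 CPM in Molino (SD, n = 3 each) and did not differ detectably from Tinaja in either (log2 differences of −0.16 and −0.09, standard error 0.09 each, edgeR adjusted p = 0.143 and 0.375). miR-198 was higher in Tinaja than in surface fish but lower than in the other cave morphs, which had 299.3 ± 10.9 CPM in Pachón and 250.6 ± 15.2 CPM in Molino (SD, n = 3 each). miR-212 stood at 189.4 ± 4.99 CPM in Molino, with a log2 difference of −1.65 between Tinaja and Molino (edgeR adjusted p = 6.06e-10). It was also called higher in Pachón than in surface fish, at 42.0 ± 2.52 CPM (SD, n = 3). miR-221 was called higher in both, at 101.8 ± 9.65 CPM in Pachón and 78.4 ± 7.89 CPM in Molino (SD, n = 3 each). It was lower in Tinaja than in Pachón by less than 2-fold (log2 difference −0.56, edgeR adjusted p = 0.00225). From Molino it did not differ detectably (edgeR adjusted p = 0.244). miR-88 was highest in Tinaja, with 88.8 ± 15.2 CPM in Pachón and 229.9 ± 15.1 CPM in Molino (SD, n = 3 each), and its log2 difference from Molino was 0.79 (standard error 0.19, adjusted p = 0.00196 from edgeR), short of the fold-change rule.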

How the data were processed

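Small RNA was isolated from embryos at 24 hpf and sequenced as single reads. The authors removed adapters with cutadapt 2.5, discarded reads under 18 bp and reads of other small RNA classes, called miRNAs with miRDeep2 from all libraries combined, and deposited the whole-number counts of each mature miRNA per library, without normalization. The authors' counting was on hairpin precursors of the *A. mexicanus* 2.0 genome, and reads that match several similar miRNAs cannot be traced in the table. Morphs and replicate numbers were taken from the sample labels, and 0 columns of values were left unused.

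In R 4.3.3, the counts of all 12 libraries were fitted with edgeR 4.0.16 (TMM factors, glmQLFit, glmQLFTest, a mean for each morph, no low-count filter). The thresholds (0.05 for the adjusted p, 2 for the fold change) followed the study, whose text names edgeR but not the test function. Standard errors are the log2 fold change divided by the square root of F, and levels are TMM-normalized CPM. An exact permutation test of 3 libraries against 3 cannot give a two-sided p under 0.1 and was not used. Lower limits of fold changes set the empty morph to 3 counts in each library, and counting intervals at 95% are exact binomial intervals on summed counts; both cover counting error only.

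The script was tested on simulated data. Alternatives were other scaling, DESeq2 1.42.0, the likelihood ratio test, a fit of the 6 libraries, low-count filters, other call rules, thinning, the replicate number as a block, and leaving out each library. The miRNAs named are, in each direction, the 5 with the smallest adjusted p (mean of 10 counts or more), the 5 called with the highest level, the 5 apart from all morphs with the largest smallest fold change, and the 4 most abundant switched ones. All called at 1000 CPM or more, the 2 with the largest difference among those called oppositely in Pachón and in Molino, and the 10 most abundant were added, and others are marked as chosen later. The members, lists, and rules were chosen with earlier results of these data known.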

Additional observations from a re-analysis of the deposited data

Results flagged for a closer look

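Among the miRNAs named by the rule, 9 were called in one direction in Tinaja and in the opposite direction in another cave morph, both against surface fish, and the direct test between the cave morphs was called too. The adjusted p in parentheses comes from edgeR and compares Tinaja with the other cave morph directly. miR-215 was higher in Tinaja and had no count in Molino (adjusted p = 3.7e-15). miR-251 and miR-205 were lower in Tinaja and higher in Molino (1.04e-15 for each), as were miR-224 (2.62e-14), miR-138 (7.16e-13), and miR-490 (4.99e-08). miR-239, with 0, 0, and 1 counts in Tinaja, 1691, 1598, and 1395 in Molino, and 20, 16, and 20 in surface fish, was also lower in Tinaja and higher in Molino (1.04e-15). Pachón was called in the same direction as Tinaja for miR-215, miR-251, miR-224, and miR-239. Its log2 fold changes against surface fish were 4.43, −4.06, −1.95, and −3.01. For miR-215 and miR-251, Tinaja and Pachón were not called different from each other. miR-215 was still lower in Tinaja than in Pachón by less than 2-fold (log2 difference −0.66, edgeR adjusted p = 7.93e-06). miR-251 did not differ detectably between them (edgeR adjusted p = 0.382). Pachón was not called against surface fish for miR-205, miR-138, or miR-490. For miR-138 it was lower by less than 2-fold, with an edgeR adjusted p against surface fish of 0.019. miR-298 was lower in Tinaja and higher in both Pachón (1.23e-09) and Molino (1.58e-09). miR-560 went the other way, with 42, 29, and 11 counts in Tinaja, 2, 1, and 0 in Pachón, none in Molino, and 5, 5, and 6 in surface fish (4.12e-05 against Pachón and 2.38e-05 against Molino), and its call against surface fish was lost in 4 alternatives. miR-290 and miR-266, named after their values were seen, also had opposite calls. Groups of 3 libraries were not tested for single outlying libraries.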

How the results depend on the processing

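The counts of called miRNAs depended most on the handling of low counts and on the fold-change rule. A minimum of 10 counts in every library left 311 miRNAs and gave 45 called, 23 higher and 22 lower, with 8 and 9 called in Tinaja only and 6 and 8 apart from all other morphs. It left 151 of the 196 called miRNAs untested. Without the fold-change rule, 331 were called, 170 higher and 161 lower, including 71 at 100 CPM or more, with 49 higher in Tinaja only and 60 higher and 51 lower apart from all morphs. Testing against a 2-fold change in place of 0 gave 128, 62 higher and 66 lower, with 13 and 18 apart. Each other scaling, test, or filter stayed within 1.5 times of the main counts of calls, and the median log2 fold change of all miRNAs stayed within 0.042 of 0. A fit of the 6 Tinaja and surface fish libraries alone gave 180 called. Its edgeR adjusted p was 5.17e-07 for miR-212 and 8.3e-11 for miR-226, against 1.44e-10 and 3.63e-15 with all 12 libraries.

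Leaving out 1 library gave 171 to 197 called, 83 to 97 higher, 88 to 100 lower, 24 to 31 and 29 to 40 in Tinaja only, 22 to 30 and 25 to 34 apart, and 8 to 9 at 100 CPM or more; the lowest total came without surface fish replicate 1. Of the 196 main calls, 164 to 181 were kept when a Tinaja or surface fish library was left out. With the replicate number as a block, 192 were called, 97 higher and 95 lower, 189 of them also called without it. Deviations of same-numbered Tinaja and surface fish libraries correlated at −0.0755, 0.0458, and −0.0044, so the number was not taken as a pairing.

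The 17 miRNAs present in Tinaja and near 0 in surface fish became 11 on counts thinned to the shallowest library, 9 with limits of 0 and 10 counts, and 10 with limits of 3 and 30 counts; the 15 with the reverse pattern became 17, 9, and 4 under the same settings. With 1 library left out there were 17 to 24 and 15 to 17. Counting miR-207 and miR-208 as 1 miRNA, chosen after seeing the data, gave 193 called. Of the miRNAs named by the rule, miR-560 lost its call in 4 alternatives (adjusted p = 0.0739 thinned, 0.0824 without Tinaja replicate 1, 0.0691 without surface fish replicate 1, 0.206 against a 2-fold change), and miR-194 (0.0689) and miR-200 (0.1) lost theirs against a 2-fold change. The other called miRNAs named by the rule kept their calls in the scalings, tests, filters, and left-out libraries in which they were tested. These miRNAs were chosen on the same libraries, most for a small adjusted p, a high level, or a large fold change. Keeping their calls is thus largely built in and does not stand for all called miRNAs. Of the 10 most abundant miRNAs, none of which was called, miR-1, miR-2, and miR-8 had an adjusted p under 0.05 in some alternatives. The adjusted p of miR-10 was above 0.05 without TMM factors, in the likelihood ratio test, and in the fit of the 6 libraries.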
